A study of Mus musculus with 2 samples.

Results

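Interferon gamma signalling was followed through 7 of the 32285 genes counted in a single-cell data set: the ligand gene Ifng, the receptor genes Ifngr1 and Ifngr2, the chemokine genes Cxcl9 and Cxcl10, their receptor gene Cxcr3, and the transcription factor gene Irf1. The genes were taken by their symbols. They were chosen by their levels in cell types of these same libraries and by how those levels differed between the genotypes, so levels and ratios are given as descriptions, without tests. The cells came from the stromal vascular fraction of mouse epididymal white adipose tissue (eWAT), which is what remains of digested fat after the mature adipocytes are removed. Both groups had been fed a high-fat diet for 10 weeks. One group carried a myeloid conditional knockout of Camk2d (Camk2d-CKO), the gene for the delta chain of a calcium and calmodulin dependent kinase, and the other was Wild-type. The Cre driver, the deleted exons, the strain, the age and the number of animals per library are not given in the sources used here. Each group is 1 library of 10x 3′ single-cell RNA-seq, so the difference between the genotypes cannot be told apart from the difference between these libraries, and every interval below covers counting error only.

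Interferon gamma is a cytokine made mainly by T cells and natural killer cells. It binds a receptor built from IFNGR1, the ligand-binding chain, and IFNGR2, the signalling chain, and this receptor signals through JAK kinases to DNA elements called GAS. Irf1 is among the genes switched on in this way, and its product in turn acts on many target genes. Cxcl9 and Cxcl10 are among these targets, and their products draw in T cells and natural killer cells that carry CXCR3. Cxcl10 is also switched on by type I interferons and by NF-kB, whereas Cxcl9 is known as the more selective interferon gamma target. In obese visceral fat, T cells and interferon gamma are known to build up together with inflammatory macrophages.

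The upstream sequences of Irf1 and Cxcl10 are shown because they hold the letters through which such signals are read. Each is the run of 250 bases before the start site, 5′ to 3′ on the strand of the gene, from RefSeq's table for GRCm38.p6. Capitals mark matches on either strand to a GAS motif (TTCNNNGAA), to a pair of GAAA letters separated by 2 bases as in interferon response elements, or to the NF-kB consensus.
Irf1, chr11:53769764-53770013, plus strand: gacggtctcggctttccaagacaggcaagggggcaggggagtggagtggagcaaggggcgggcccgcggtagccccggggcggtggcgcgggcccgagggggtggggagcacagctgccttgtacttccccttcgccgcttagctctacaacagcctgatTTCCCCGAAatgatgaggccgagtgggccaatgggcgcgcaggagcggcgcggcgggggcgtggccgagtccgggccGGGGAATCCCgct
Cxcl10, chr5:92348890-92349139, minus strand: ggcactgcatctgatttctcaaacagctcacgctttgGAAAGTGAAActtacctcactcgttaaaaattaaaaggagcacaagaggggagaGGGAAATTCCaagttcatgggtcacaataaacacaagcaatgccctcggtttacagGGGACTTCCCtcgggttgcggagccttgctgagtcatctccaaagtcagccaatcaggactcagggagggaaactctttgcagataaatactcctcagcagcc

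The Irf1 window shown held the GAS match TTCCCCGAA from 90 to 82 bases before the start and 1 NF-kB match from 13 to 4 bases before it. The Cxcl10 window held the paired GAAA letters from 213 to 204 bases before the start and NF-kB matches that begin 159 and 103 bases before it. Over all 32851 windows of the same length, 7.02% held a GAS match, 2.98% the paired GAAA letters and 3.90% an NF-kB match. The window of a second Irf1 start site held none of the 3. Of the windows not shown, Ifng had a GAS match from 249 to 241 and Ifngr2 an NF-kB match from 75 to 66 bases before the start, and Ifngr1 and Cxcr3 had none. The Cxcl9 window held none of the 3 motifs, which says only that these letters are not in its 250 bases. Cxcl9 and Cxcl10 are neighbours on chromosome 5 of mm10 (Cxcl9, 92321347 to 92328079; Cxcl10, 92346638 to 92348889), both on the minus strand and 18558 bases apart. Ifng (118441046 to 118445892) and Ifngr1 (19591949 to 19610229) lie on chromosome 10, Irf1 (53770014 to 53778374) on chromosome 11, Ifngr2 (91547072 to 91565623) on chromosome 16, and Cxcr3 (101731535 to 101734269) on chromosome X.

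The knockout library held 10631 barcodes with a median of 7385 UMIs (unique molecular identifiers, each standing for 1 captured transcript), and the wild-type library 15555 with a median of 3094. After filters on depth and mitochondrial share, 9635 and 15332 cells were kept, and 48 barcodes occurred in both libraries. Marker genes that include none of the 7 placed 74.9% and 55.7% of kept cells in 21 gates, of which 14 held at least 50 cells in both libraries. All 4 T cell markers were detected in each T gate and all 8 macrophage markers in each macrophage gate, as the gating required several of them. RNA of other cell types was heavier in wild-type than in knockout lymphocytes: the 5 progenitor markers summed to 259 CPM (UMIs of a gene over all UMIs of the gate, times 1000000) in knockout and 1135 CPM in wild-type CD8 T cells. Erythroid cells are used as a background below, but globin took 76.6% of their knockout and 42.5% of their wild-type UMIs, so their CPM is also given without globin UMIs. Camk2d itself was at 21.7 CPM in knockout and 47.6 CPM in wild-type lipid-associated macrophages, at 25.3 and 35.7 CPM in resident macrophages, and at 30.0 and 47.6 CPM in other macrophages. Among the other myeloid gates, monocytes were at 60.1 and 59.0 CPM and type 1 conventional dendritic cells at 19.3 and 24.0 CPM. Type 2 conventional dendritic cells were at 11.1 and 22.8 CPM, on 6 and 14 UMIs. In these gates the intervals of the log2 ratio include 0 (-0.51 to 0.57, -1.06 to 0.42 and -2.71 to 0.42). In B cells, outside the targeted lineage, Camk2d was at 191 and 169 CPM. Whether the 3′ tags lie in the deleted part is not known, so these values do not check the deletion.

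Ifng transcripts sat in T and natural killer cells in both libraries. These gates held 95.2% of gated Ifng UMIs in the knockout library (exact binomial 95% interval from 93.4%) and 91.9% in the wild type (from 88.0%). In the knockout library Ifng stood at 170 CPM in CD4 T cells (289 UMIs in 319 cells), 80.0 CPM in natural killer cells (93 UMIs in 176 cells), 79.3 CPM in T cells without Cd4 or Cd8 UMIs (138 UMIs in 339 cells) and 71.9 CPM in CD8 T cells (185 UMIs in 370 cells). In the wild-type library the same gates stood at 97.7 CPM (20 UMIs in 54 cells), 51.2 CPM (53 UMIs in 256 cells), 60.6 CPM (78 UMIs in 333 cells) and 55.9 CPM (92 UMIs in 374 cells). CD4 T cells were thus highest in both, with a Poisson interval of 151 to 191 CPM in the knockout that does not overlap the other gates. In the wild type the interval of CD4 T cells, 59.7 to 151 CPM, overlapped those of the other 3, which also overlapped one another.

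All 4 ratios pointed upward in the knockout library, by less than 1 on the log2 scale, and the intervals in CD8 T cells and in T cells without Cd4 or Cd8 reached below 0. The log2 ratio of knockout over wild type was 0.36 in CD8 T cells (exact conditional interval -0.0037 to 0.74), 0.39 in the T cells without Cd4 or Cd8 (-0.02 to 0.81), 0.64 in natural killer cells (0.14 to 1.16) and 0.80 in CD4 T cells (0.14 to 1.53). The CD4 T value rests on few wild-type cells: without the 5 cells richest in Ifng in each library it was 2.22. The markers of these gates were higher in the knockout library as well. The 4 T cell markers summed to 2472 and 1811 CPM in CD8 T cells and 2849 and 1529 CPM in CD4 T cells. They summed to 2324 and 1691 CPM in T cells without Cd4 or Cd8, and the 7 natural killer markers to 6140 and 4650 CPM in natural killer cells. The part of this difference in the Ifng ratios was not tested. When each cell was thinned to 2000 UMIs, an Ifng UMI was seen in 14.0% of knockout and 10.0% of wild-type CD8 T cells, against 26.5% and 18.2% before thinning. The intervals of these thinned shares overlapped (10.6% to 18.0% and 7.10% to 13.6%). Thinned shares were 24.4% and 19.2% in CD4 T cells and 9.60% and 8.25% in T cells without Cd4 or Cd8, also with overlapping intervals. In natural killer cells the thinned shares were 9.71% and 10.3%, and no order is read from them, since the levels lie the other way round. B cells served as a background, with an Ifng UMI in 0.538% of knockout and 0.326% of wild-type cells at median depths of 5527 and 4780 UMIs.

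Not 1 Ifng UMI was seen in monocytes, a count that a true number of up to 3 per library could give. The 3 macrophage gates together held 10 Ifng UMIs in 1157 knockout cells and 7 in 2030 wild-type cells. Progenitors, the fibroblast-like cells from which adipocytes arise, were at 0.503 and 0.562 CPM. The genes whose levels over the 14 gates were most like Ifng's were Cd96, a receptor of T and natural killer cells (Pearson r of 0.97 for knockout and 0.98 for wild-type gates on log2(CPM + 1)), Ms4a4b (0.97 and 0.97) and Ubash3a, a regulator of T cell receptor signalling (0.97 and 0.97). The gates of a library share its depth and free RNA, so these values are descriptions.

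**Figure D1:**
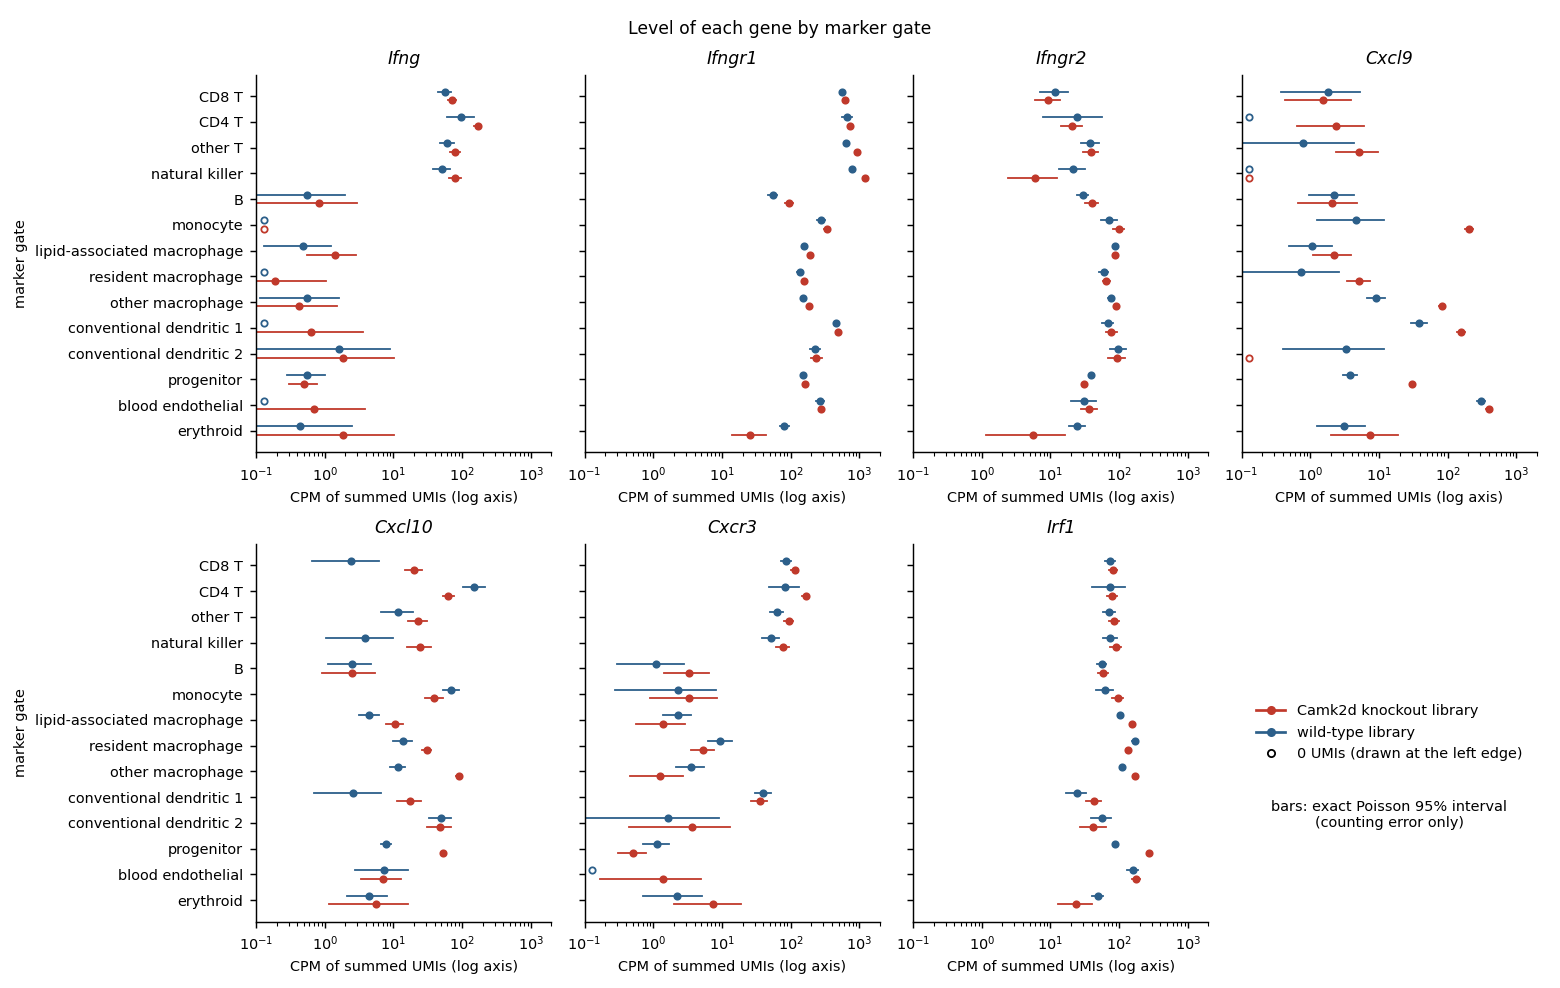
Level of each of the 7 genes (CPM, log axis) in the 14 compared gates, with knockout in red and wild type in blue. Points are CPM from summed UMIs, bars are exact Poisson 95% intervals, and open points mark 0 UMIs; Ifng lies above 50 CPM in the 3 T gates and in natural killer cells and below 2 CPM in the other gates, Cxcl9 peaks in blood endothelial cells at 400 and 305 CPM, and Irf1 is 274 CPM in knockout against 87.7 CPM in wild-type progenitors.

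The receptor genes were measured in all 14 compared gates. Among these, Ifngr1 was highest in natural killer cells, at 1230 CPM in knockout and 782 CPM in wild-type cells (1431 and 809 UMIs). It followed in T cells without Cd4 or Cd8 at 922 and 651 CPM, CD4 T cells at 741 and 664 CPM, CD8 T cells at 620 and 556 CPM, and type 1 conventional dendritic cells at 491 and 465 CPM. Among wild-type cells, T cells without Cd4 or Cd8 and CD4 T cells did not differ beyond their Poisson intervals (607 to 696 and 557 to 786 CPM). Monocytes were at 339 and 281 CPM, blood endothelial cells at 282 and 266 CPM, lipid-associated macrophages at 193 and 155 CPM, and B cells at 94.6 and 55.0 CPM. Between these lay type 2 conventional dendritic cells at 238 and 230 CPM, other macrophages at 188 and 151 CPM, progenitors at 164 and 150 CPM and resident macrophages at 157 and 136 CPM, the last 3 with overlapping intervals among wild-type cells. Erythroid cells were at 25.8 and 81.3 CPM, or 110 and 141 CPM without globin, so the B cell levels were not above this background. Gamma delta T cells, with too few knockout cells to be compared, were at 1240 CPM (284 UMIs in 39 cells) and 974 CPM (510 UMIs in 131 cells), and regulatory T cells at 1183 CPM (20 cells) and 679 CPM (14 cells).

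Among the 14 gates, Ifngr2 was highest in myeloid cells. It stood at 98.8 CPM in knockout and 71.7 CPM in wild-type monocytes, at 94.0 and 96.3 CPM in type 2 conventional dendritic cells, at 91.5 and 76.9 CPM in other macrophages (those with both or neither of the lipid-associated and resident marker sets), at 88.5 and 87.7 CPM in lipid-associated macrophages, and at 77.2 and 68.1 CPM in type 1 conventional dendritic cells. Lower levels were seen in B cells (39.9 and 29.4 CPM), T cells without Cd4 or Cd8 (38.5 and 38.1 CPM), blood endothelial cells (37.0 and 30.9 CPM) and progenitors (31.2 and 38.9 CPM). Outside the compared gates, gamma delta T cells were as high, at 91.7 and 99.3 CPM (21 and 52 UMIs). In natural killer cells, the compared gate with most Ifngr1, only 7 knockout and 22 wild-type Ifngr2 UMIs were seen (6.02 and 21.3 CPM). The erythroid background was 5.53 and 24.7 CPM, or 23.7 and 43.0 CPM without globin. CD8 T cells were as low, at 9.33 and 11.5 CPM. In natural killer and CD8 T cells the Ifngr2 level was therefore not above the erythroid background in either library beyond counting error. Between libraries the receptor genes differed by under 1.5-fold in progenitors and macrophages: the log2 ratio in progenitors was 0.13 for Ifngr1 (0.06 to 0.19) and -0.32 for Ifngr2 (-0.45 to -0.18), and in the 3 macrophage gates it was 0.21 to 0.32 for Ifngr1 and 0.01 to 0.25 for Ifngr2. Among the 14 gates the largest upward log2 ratios of Ifngr1 were 0.78 in B cells (0.50 to 1.06), whose levels were not above the erythroid background, and 0.65 in natural killer cells (0.53 to 0.78). T cells without Cd4 or Cd8 followed at 0.50 (0.38 to 0.62). The lineage markers of these gates were also higher in the knockout library, and their part was not tested.

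Cxcl9 had different leading cell types by level and by amount. By level, blood endothelial cells led in both libraries, at 400 CPM in knockout (572 UMIs in 148 cells) and 305 CPM in wild-type cells (247 UMIs in 130 cells). There the transcript was common: 64.2% of knockout and 50.8% of wild-type endothelial cells had a Cxcl9 UMI, and 46.1% and 35.1% after thinning, against 0.824% and 0.690% of thinned B cells. The log2 ratio between libraries was 0.39 (0.17 to 0.61). By amount, endothelial cells held 52.8% of gated Cxcl9 UMIs in the wild type but 21.2% in the knockout, where progenitors held 43.1%. A further 923 knockout and 84 wild-type Cxcl9 UMIs lay in ungated cells (25.5% and 15.2% of all kept).

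Knockout progenitors stood at 30.8 CPM of Cxcl9 and wild-type progenitors at 3.83 CPM, a log2 ratio of 3.01 (2.67 to 3.36). Background was 2.06 and 2.20 CPM in B cells and 7.38 CPM (4 UMIs in 2 cells) and 3.09 CPM in erythroid cells, or 31.6 and 5.38 CPM without globin. The wild-type progenitor level was thus not above either background beyond counting error, and the knockout level was above that of B cells but not above those few erythroid UMIs without globin. The 1163 knockout UMIs came from 148 of 3676 cells and the 75 wild-type UMIs from 39 of 2883. Few cells carried most of them: 9 knockout cells held at least 50%, the richest had 208 UMIs, and 27 knockout cells against 1 wild-type cell had at least 10. Without the 5 richest cells of each library the log2 ratio was 3.39, so it was as large without them. After thinning, 1.86% of knockout and 0.334% of wild-type progenitors had a Cxcl9 UMI, against 4.03% and 1.35% before it, and 0.824% and 0.690% of thinned B cells.

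Cxcl9 in myeloid cells rested on fewer cells still. Type 1 conventional dendritic cells, which carry antigen to CD8 T cells, were at 156 CPM in knockout and 38.3 CPM in wild-type cells (log2 ratio 2.03), with 151 of the 243 knockout and 38 of the 59 wild-type UMIs in 1 cell each. Without the 5 richest cells of each library the ratio there was 1.33. Other macrophages were at 82.6 and 9.14 CPM (log2 ratio 3.18, 2.75 to 3.64), with 26 of 415 knockout and 6 of 719 wild-type cells positive. Without the 5 richest cells that ratio was 6.57, since only 1 of the 6 positive wild-type cells was then left. Monocytes were at 207 and 4.62 CPM, but 219 of the 251 knockout UMIs came from 1 cell. Lipid-associated macrophages, which gather around dying adipocytes, were low at 2.19 and 1.08 CPM, and resident macrophages were at 5.14 and 0.728 CPM. No T gate exceeded 5.17 CPM, and natural killer cells had 0 Cxcl9 UMIs in either library.

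By amount, Cxcl10 lay mainly in progenitors and macrophages, with little in the endothelial cells that led for Cxcl9. The 3 macrophage gates held 21.1% of gated knockout and 29.2% of gated wild-type UMIs. By level, wild-type CD4 T cells (151 CPM), monocytes (69.4 CPM) and type 2 conventional dendritic cells (49.0 CPM) stood above wild-type progenitors and macrophages. Knockout progenitors were at 52.4 CPM (1983 UMIs in 230 of 3676 cells) and wild-type progenitors at 7.86 CPM (154 UMIs in 78 of 2883 cells), a log2 ratio of 2.74 (2.50 to 2.98). Background was 2.47 and 2.48 CPM in B cells and 5.53 and 4.42 CPM in erythroid cells, or 23.7 and 7.68 CPM without globin, so the wild-type progenitor level lay at the last of these. Progenitors held 64.7% of gated knockout and 32.6% of gated wild-type Cxcl10 UMIs. Here too a few cells dominated, with 49 knockout and 2 wild-type cells at 10 UMIs or more, and 17 knockout cells holding at least 50%. Without the 5 richest cells of each library the ratio was 2.89. Other macrophages were at 91.2 and 11.8 CPM (log2 ratio 2.96, or 1.83 without the 5 richest cells of each library). Resident macrophages were at 30.5 and 13.8 CPM, but 92 of the 160 knockout UMIs lay in 1 cell, and without the 5 richest cells the log2 ratio turned from 1.14 to -0.56.

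The remaining gates varied in direction. Cxcl10 was lower in knockout than wild-type monocytes, at 39.5 and 69.4 CPM. There 2 wild-type cells held 33 of the 60 UMIs and 1 knockout cell held 11 of the 48. It was also lower in knockout CD4 T cells, at 63.5 and 151 CPM, where 2 wild-type cells held 28 of the 31 UMIs. Type 2 conventional dendritic cells were at 47.9 and 49.0 CPM, and 1 cell in each library held at least 50% of those UMIs. In CD8 T cells it was at 19.8 and 2.43 CPM (51 and 4 UMIs), and the 2 knockout cells with at least 10 UMIs had a median of 23203 UMIs in all, against 5792 for the gate. Natural killer cells were at 24.1 and 3.87 CPM (28 and 4 UMIs), type 1 conventional dendritic cells at 17.4 and 2.59 CPM (27 and 4 UMIs) and lipid-associated macrophages at 10.6 and 4.43 CPM. Blood endothelial cells were at 6.99 and 7.42 CPM, not above the erythroid levels beyond counting error.

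**Figure D2:**
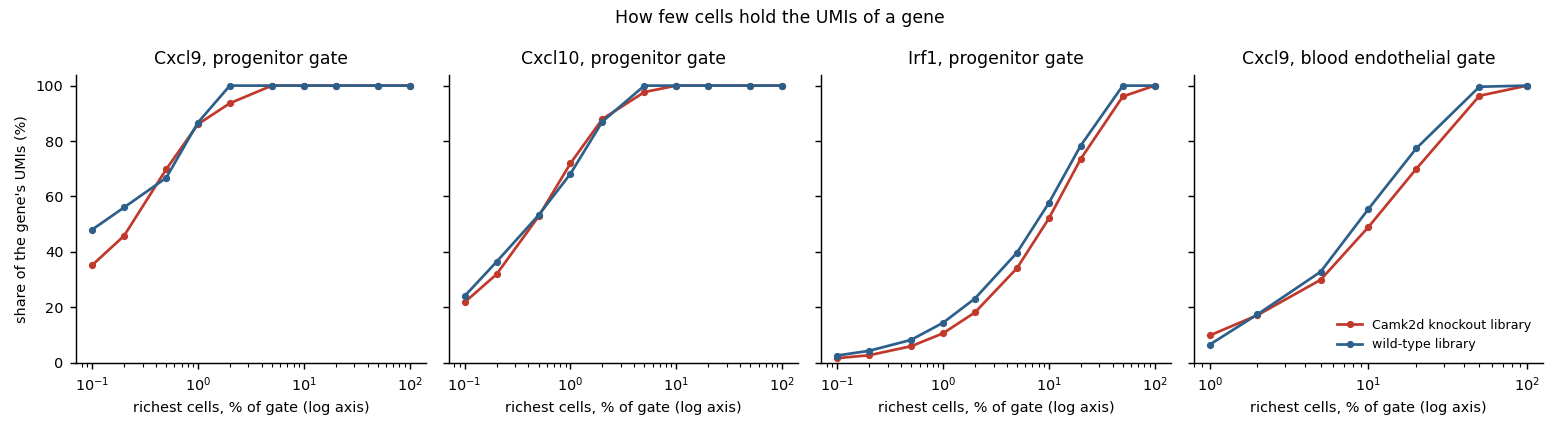
Share of a gene's UMIs in a gate (%) held by the richest cells, given as a percent of the gate's cells on a log axis, for knockout in red and wild type in blue. The richest 1% of progenitors held 86.1% (knockout) and 86.7% (wild type) of Cxcl9 and 72.0% and 68.2% of Cxcl10, while the richest 10% held 52.0% and 57.6% of Irf1.

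Both chemokines met in the same progenitors in the knockout library. Of 65 thinned knockout progenitors with a Cxcl9 UMI, 38.5% also had Cxcl10 (26.7% to 51.4%), against 2.43% of the 3422 without Cxcl9. Irf1 was seen in 56.9% of those with Cxcl9 and in 29.7% of those without. In the wild type, 0 of 9 Cxcl9-positive thinned progenitors had Cxcl10, which at this number allows a share of up to 33.6%. In blood endothelial cells 0 of 53 knockout and 1 of 40 wild-type Cxcl9-positive cells had Cxcl10. Only 1 thinned endothelial cell in each library had a Cxcl10 UMI at all, so these counts cannot show whether the pair meets there. In the knockout library, progenitors with the Pi16 or Dpp4 transcripts of early, less committed cells had Cxcl10 at 40.3 CPM, against 56.1 CPM in the others. Their Cxcl9 was at 27.4 against 31.8 CPM, with overlapping Poisson intervals (24.0 to 31.1 and 29.8 to 33.9 CPM). In the wild type Cxcl10 was level, at 7.89 against 7.84 CPM, and Cxcl9 was at 1.92 against 5.41 CPM. Few cells held most of these UMIs, which the intervals do not cover.

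Progenitors rich in these chemokines also carried many other interferon-induced transcripts. Within the knockout library, 63 progenitors had at least 10 UMIs of Cxcl9 or Cxcl10, 13 of them of both, and 3341 had neither transcript; the median depths were 11417 and 10305 UMIs. Of the listed interferon gamma targets, 22 of 27 measured were at least 1.5-fold higher in the rich cells, against 2.72% of all 5770 genes measured. In this contrast 0 targets were lower, and the share of all genes that were lower was not computed. Iigp1, a GTPase that attacks vacuoles of intracellular parasites, was at 909 against 105 CPM. The guanylate-binding protein gene Gbp2 was at 650 against 77.7 CPM, its relative Gbp5 at 133 against 10.4 CPM, and Cd274, the gene for the checkpoint ligand PD-L1, at 57.5 against 4.72 CPM. Cd274 passed the level filter through the rich cells, where it is high. Irf1 was at 683 against 249 CPM.

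Type I interferon genes were often higher too: 9 of 13 measured were at least 1.5-fold higher, against 2.72% of all 5770 genes measured. Irf3 was lower, at 14.4 against 26.7 CPM. Rsad2, 1 of the 9, was at 114 against 7.96 CPM and passed the level filter through the rich cells, where it is high. The count is therefore a description. The largest ratio of all measured genes with at least 30 UMIs in the cells without chemokine transcripts, outside the 7 and outside ribosomal, mitochondrial, globin, immunoglobulin and unnamed genes, belonged to Ifit1, an antiviral RNA-binding protein, at 402 against 26.6 CPM (log2 ratio 3.91). The receptor genes were level, with Ifngr1 at 154 against 164 CPM and Ifngr2 at 30.1 against 31.2 CPM. Among the NF-kB led genes 5 of 8 were at least 1.5-fold higher, against the same 2.72% of all genes. The neutrophil chemokine gene Cxcl1 was not among them, at 2040 against 1606 CPM. The class II antigen presentation genes H2-Aa (136 against 120 CPM) and Cd74 (222 against 179 CPM) stayed within 1.5-fold. This division of the cells was chosen after the values were seen, and it uses Cxcl9 and Cxcl10 themselves, which are therefore left out of the counts.

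**Figure D3:**
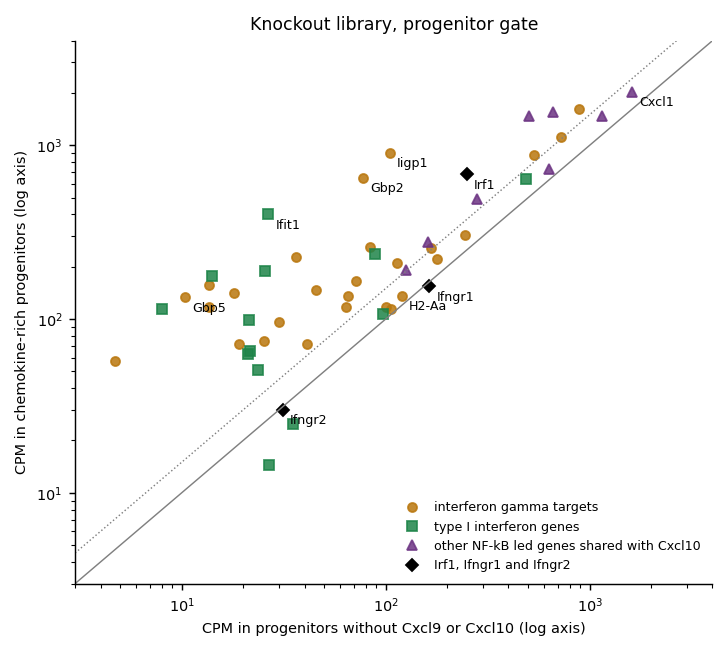
Each point is a gene of 3 pathway lists, or Irf1, Ifngr1 or Ifngr2, with its CPM in the 3341 knockout progenitors without Cxcl9 and Cxcl10 on the x axis and in the 63 chemokine-rich ones on the y axis (both log). The solid line marks equal levels and the dotted line 1.5-fold; Iigp1, Gbp2 and Ifit1 lie far above it, and both receptor genes lie on the line of equal levels.

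Endothelial cells gave another picture. Among endothelial cells with at least 2000 UMIs, 90 knockout cells had a Cxcl9 UMI and 25 did not, and 60 and 54 in the wild type. Of the listed targets, 7 of 22 were at least 1.5-fold higher in the Cxcl9-positive knockout cells, where 33.6% of all genes were, and 3 of 21 in the wild type, where 16.9% of all genes were. Those shares are near the background. Irf1 was higher in the Cxcl9-positive cells of both libraries, at 192 against 87.0 CPM (log2 ratio 1.14, 0.41 to 1.97) and 189 against 96.0 CPM (0.98, 0.34 to 1.66). In cells thinned and divided anew by Cxcl9, Irf1 was seen in 26.4% of positive and 29.0% of negative knockout cells and in 32.5% and 20.3% of wild-type cells. The positive cells were also deeper, with medians of 10094 against 5057 UMIs and 6030 against 3971 UMIs, and the part of depth in these values was not tested. Among genes with at least 30 UMIs in the Cxcl9-negative cells, leaving out ribosomal, mitochondrial, globin, immunoglobulin and unnamed genes, Aqp1, the water channel of capillary endothelium, had the largest ratio in both libraries, at 1348 against 337 CPM and 1265 against 336 CPM. Over the 14 gates the genes most like Cxcl9 were Nectin2, an adhesion molecule (r of 0.72 and 0.77), Lrp5, a Wnt co-receptor (0.71 and 0.72), and Cep85l (0.71 and 0.77). For Cxcl10 they were Ncapg2 (0.65 and 0.72), Tiam1 (0.61 and 0.63) and Stx11 (0.65 and 0.60).

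Cxcr3, the receptor for both chemokines, was, among the 14 compared gates, highest in the same 4 as Ifng. T and natural killer gates held 86.1% of its gated knockout and 67.1% of its gated wild-type UMIs. CD4 T cells were at 167 and 83.0 CPM, CD8 T cells at 115 and 85.0 CPM, T cells without Cd4 or Cd8 at 94.3 and 63.0 CPM, and natural killer cells at 76.5 and 51.2 CPM. The log2 ratio was 1.01 in CD4 T cells, on 17 wild-type UMIs, 0.44 in CD8 T cells (0.15 to 0.74) and 0.58 in natural killer cells (0.071 to 1.10). The T cell and natural killer marker sums given above were also higher in these knockout gates, and their part in the Cxcr3 ratios was not tested. Gamma delta T cells, not among the compared gates, were at 105 and 61.1 CPM (24 and 32 UMIs). Outside these lymphocytes, type 1 conventional dendritic cells had 35.4 and 40.2 CPM, above the 3.69 and 1.63 CPM of type 2 conventional dendritic cells. The genes most like Cxcr3 over the gates were Rinl (0.90 and 0.95), Cd28, a co-stimulatory receptor of T cells (0.87 and 0.91), and Cd82 (0.87 and 0.88).

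Irf1 was broadly expressed and differed most in progenitors. There it was at 274 CPM in knockout (10358 UMIs) and 87.7 CPM in wild-type cells (1718 UMIs), a log2 ratio of 1.64 (1.57 to 1.72). In contrast to the chemokines, many cells shared it: 61.0% of knockout and 32.9% of wild-type progenitors had a UMI, and 30.2% and 14.4% after thinning, against 2.02% and 7.71% of thinned erythroid cells, whose UMIs are largely globin. Without globin the erythroid level was 103 and 85.2 CPM, below the knockout and level with the wild-type progenitors. Progenitors with Pi16 or Dpp4 were at 229 and 77.6 CPM and the others at 287 and 96.1 CPM. Progenitors held 73.7% of gated knockout and 36.9% of gated wild-type Irf1 UMIs, and the 3 macrophage gates 16.3% and 41.6%.

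In macrophages Irf1 did not move one way. In lipid-associated macrophages it was at 153 CPM in knockout and 103.8 CPM in wild-type cells (log2 ratio 0.56), and in other macrophages at 172 and 112 CPM (0.62), but in resident macrophages at 136 and 172 CPM (-0.34, -0.51 to -0.17). Blood endothelial cells were at 176 and 157 CPM, and the interval of their log2 ratio, -0.15 to 0.48, includes 0. The T gates ranged from 78.8 to 83.9 CPM in the knockout and from 71.5 to 74.1 CPM in the wild type. Natural killer cells were at 89.4 and 73.5 CPM, B cells at 58.8 and 55.6 CPM, monocytes at 95.5 and 62.4 CPM (log2 ratio 0.61, 0.14 to 1.11) and type 1 conventional dendritic cells at 42.4 and 24.0 CPM (0.82, 0.22 to 1.44). Kif1b, a kinesin motor (0.91 and 0.90), and Tbc1d9b (0.88 and 0.88) were most like Irf1 over the gates.

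**Figure D4:**
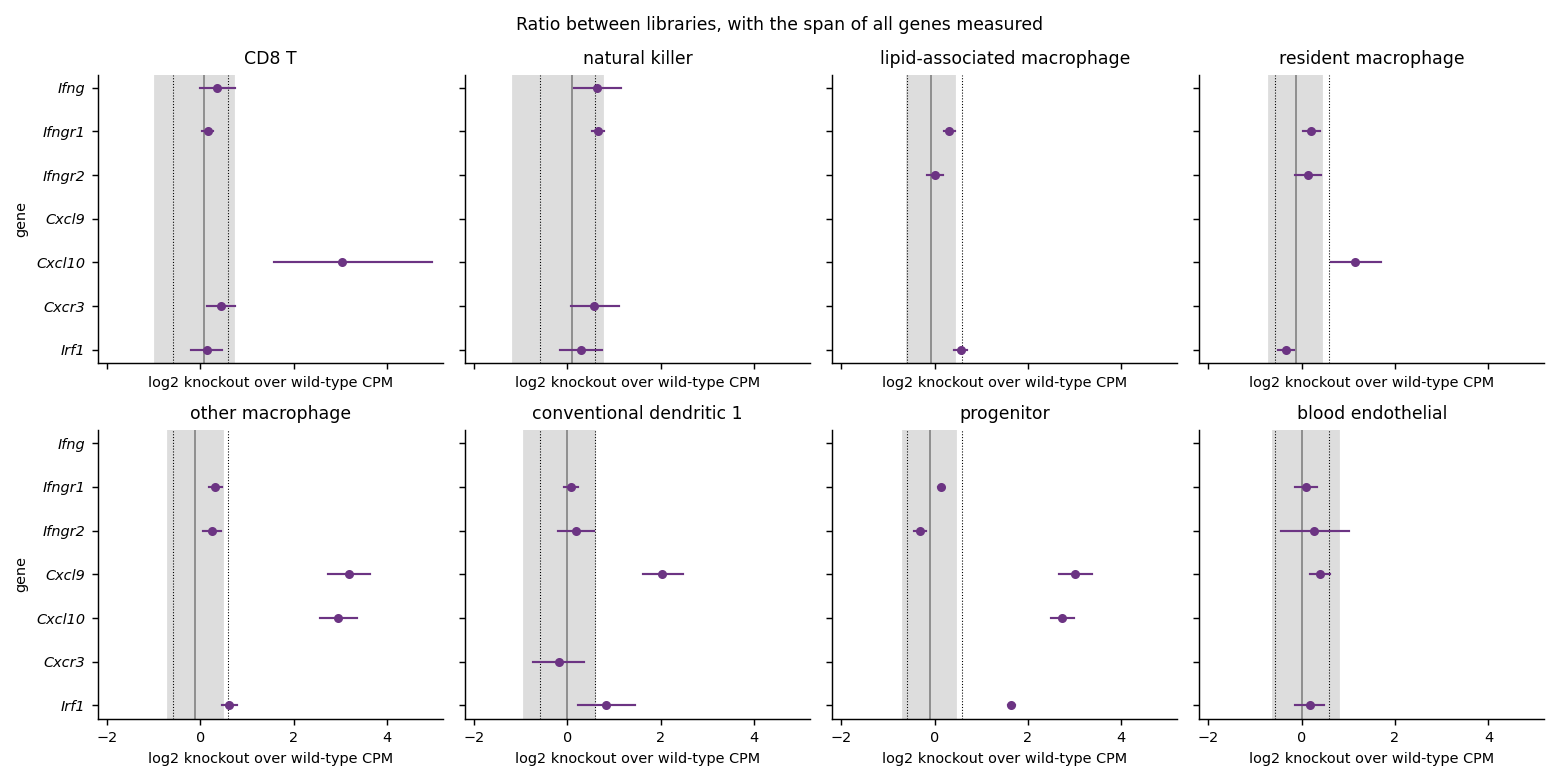
Log2 ratio of knockout over wild-type CPM for each gene that passed the level filter (points, with exact conditional 95% intervals) in 8 gates. Grey bands span the 5th to 95th percentile of all genes measured in a gate, grey lines their median, and dotted lines 1.5-fold; in progenitors Cxcl9, Cxcl10 and Irf1 lie at 3.01, 2.74 and 1.64, right of the band, while both receptor genes lie inside it.

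Against all genes measured in a gate (a mean of at least 10 CPM and 30 UMIs in the higher library), the counts read as follows. In progenitors 3 of the 5 genes measured, Cxcl9, Cxcl10 and Irf1, had at least 1.5-fold higher CPM in knockout cells and 0 lower, where 3.13% of 7985 genes were higher and 6.71% lower. Other macrophages had 3 of 5 higher, the same 3 genes, and 0 lower, with 3.64% and 7.74% of all genes. Type 1 conventional dendritic cells had 2 of 5 higher, Cxcl9 and Irf1, and 0 lower (4.96% and 10.5% of all genes). Resident macrophages had 1 of 4 higher, Cxcl10, and 0 lower (2.88% and 8.09%). CD8 T cells had 1 of 5 higher, Cxcl10, and 0 lower (8.36% and 9.15%), and natural killer cells 2 of 4 higher, Ifng and Ifngr1, and 0 lower (10.1% and 10.7%). Lipid-associated macrophages had 0 of 3 (2.55% and 4.86%) and blood endothelial cells 0 of 4 (8.78% and 5.8%) past 1.5-fold in either direction. Cxcl9 and Cxcl10 in progenitors, Cxcl9 in other macrophages and Cxcl10 in CD8 T cells were under 10 CPM in the wild type and passed the filter through the knockout library, where they are high, so nothing is read from these counts. Median-of-ratios scaling moved log2 ratios by over 0.1 in 3 of the 8 gates, up by 0.14 in progenitors, 0.16 in resident and 0.13 in other macrophages. Under it 5.12% of progenitor genes were higher and 4.37% lower, 5.21% and 4.26% in resident macrophages, and 5.61% and 4.59% in other macrophages.

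The listed targets of interferon gamma, 41 genes in the table and none of the 7, were more often higher than lower in the 8 gates described. In progenitors 8 of 27 measured were at least 1.5-fold higher and 4 lower, where 3.13% and 6.71% of all genes were. Iigp1 was at 133 and 26.7 CPM (log2 ratio 2.32) and Irgm1, another immunity-related GTPase, at 42.1 and 11.5 CPM (1.87). Gbp2 was at 92.5 and 38.8 CPM (1.26) and the adhesion molecule gene Icam1 at 249 and 107 CPM (1.22). The median log2 ratio of the list was 0.37, beside -0.10 for all genes. The 4 targets that were lower were the class II genes H2-Aa, H2-Ab1, H2-Eb1 and Cd74, for example Cd74 at 196 and 402 CPM. In the same gate the 8 macrophage markers summed to 206 CPM in knockout and 561 CPM in wild-type cells, and their part in the class II values was not tested.

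In other macrophages the class II genes were higher, unlike in progenitors. That gate had 13 of 28 targets higher and 0 lower, where 3.64% and 7.74% of all genes were (median 0.55, beside -0.11 for all genes). Cd74, the invariant chain of class II, was at 10944 and 5913 CPM, H2-Aa at 5955 and 3065 CPM and Gbp2 at 37.5 and 13.2 CPM. Resident macrophages had 12 of 29 higher and 0 lower, where 2.88% and 8.09% of all genes were (median 0.39, beside -0.13). Cd74 was at 5647 and 3002 CPM there. Lipid-associated macrophages had 4 of 24 higher, where 2.55% of all genes were (median 0.36, beside -0.07). These were the class II genes H2-Aa, H2-Ab1 and H2-Eb1 and the peptide transporter gene Tap2. Type 1 conventional dendritic cells had 5 of 23 higher, where 4.96% of all genes were, led by Iigp1 at 25.7 and 5.84 CPM. Some targets were under 10 CPM in the wild type and passed the level filter through the knockout library, where they are high. They include Iigp1 and Serpina3g in type 1 conventional dendritic cells, Iigp1 and Irgm1 in other macrophages, and Igtp and Ifi47 in progenitors. The target counts are therefore given as descriptions. The macrophage markers summed to 13123 and 13444 CPM in other macrophages.

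Blood endothelial cells had 12 of 32 targets higher and 1 lower, where 8.78% and 5.8% of all genes were. Iigp1 was at 497 and 203 CPM there, although Cxcl9 and Irf1 stayed within 1.5-fold. Endothelial cells also had 10 of 16 type I interferon genes higher and 1 lower, with Irf7, a master regulator of that response, at 203 and 40.8 CPM. In this gate the 8 macrophage markers summed to 1168 CPM in knockout and 717 CPM in wild-type cells, and their part was not tested. The median log2 ratio of the type I list and of the targets was 0.82 and 0.50 in endothelial cells. It was 0.60 and 0.36 in lipid-associated macrophages, 0.51 and 0.37 in progenitors, and 0.49 and 0.42 in natural killer cells. The order was reversed in other macrophages (0.29 and 0.55) and resident macrophages (0.30 and 0.39). So it was in type 1 conventional dendritic cells (0.12 and 0.39) and CD8 T cells (0.26 and 0.36). Among lymphocytes, 7 of 29 targets were higher in CD8 T cells and 8 of 26 in natural killer cells, with 0 lower in either, in gates where 8.36% and 10.1% of all genes were higher, and Cd274 in natural killer cells at 68.8 and 30.0 CPM.

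**Figure D5:**
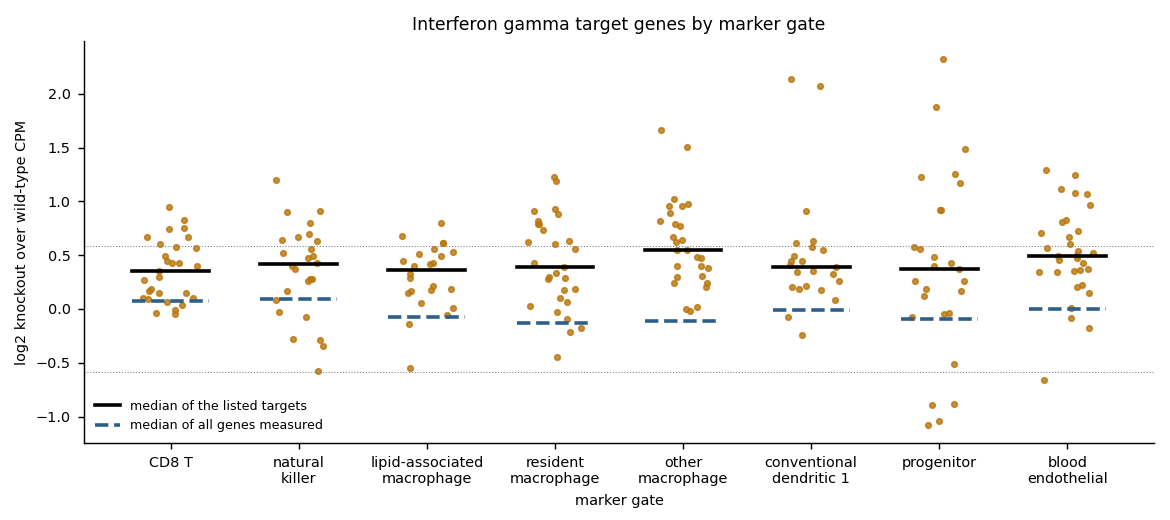
Log2 ratio of knockout over wild-type CPM (y axis) for each measured interferon gamma target in 8 gates (x axis). Black bars are list medians, from 0.36 to 0.55, dashed blue bars are medians of all genes measured, from -0.13 to 0.09, and dotted lines mark 1.5-fold; the 4 lowest points in progenitors are the class II genes.

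Other genes known to be led by NF-kB were mostly higher in knockout progenitors, endothelial cells and macrophages. In progenitors 7 of 8 were at least 1.5-fold higher, where 3.13% of all genes were. Cxcl1 led at 1642 and 345 CPM (log2 ratio 2.25). All 8 were higher in blood endothelial cells, where 8.78% of all genes were. Cxcl2 led at 1458 and 363 CPM, beside the macrophage marker sums of 1168 and 717 CPM in that gate, whose part was not tested. In resident macrophages 6 of 8 were higher (2.88% of all genes) and in other macrophages 6 of 7 (3.64% of all genes). In CD8 T cells 5 of 7 were lower, where 9.15% of all genes were. Cxcl2 was at 116 and 342 CPM, beside macrophage marker sums of 241 and 742 CPM in that gate, whose part was not tested. The machinery between receptor and target was listed as 15 genes such as the JAK kinases and inhibitors of cytokine signalling. In progenitors 2 of 14 measured were higher and 1 lower, where 3.13% and 6.71% of all genes were. Socs3, a feedback inhibitor of cytokine signalling, was at 1643 and 878 CPM in that gate. In other macrophages 1 of 13 was higher and 0 lower (3.64% and 7.74% of all genes). Nothing is read from these few signalling genes.

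Few genes for signals that raise Ifng in lymphocytes passed the level filter. The 11 listed inducers include the interleukin-12 and interleukin-18 genes and co-stimulatory ligands. In other macrophages 2 of 5 measured were higher, where 3.64% of all genes were. Tnfsf9, the ligand of 4-1BB, had the largest ratio at 118 and 48.3 CPM, and Cd86 was the most abundant at 106 and 62.9 CPM. In lipid-associated macrophages 1 of 5 was higher (2.55% of all genes), Tnfsf9 at 154 and 52.0 CPM. On the producing side, 3 of 15 measured genes of interferon gamma production were higher and 1 lower in CD8 T cells (8.36% and 9.15% of all genes). Ccl5, a chemokine of effector cells, was at 12295 and 8393 CPM there and Ccl3 at 124 and 24.9 CPM. Natural killer cells had 5 of 16 higher and 1 lower (10.1% and 10.7% of all genes), the lower one being Tnf at 8.60 and 30.0 CPM. Of the other homing receptors, 4 of 7 were higher in CD8 T cells (8.36% of all genes).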

How the data were processed

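The authors' deposited counts, UMIs per gene and barcode in 1 matrix per library, were used as they are. Cell Ranger 5.0.0, Seurat 4.1.1 and the mm10 build are listed in the submitters' processing notes, with no role given. Labels name adipose tissue except 1 description field that names embryonic hindlimb. Cells had at least 500 UMIs, 200 genes and at most 20% mitochondrial UMIs. Gates used rates of marker UMIs per 10000, the same in both libraries, and left out cells with foreign lineage markers, which also served against doublets. Gate thresholds were set after the data were seen. Members, lists and markers were chosen with earlier results of these data known.

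UMIs were summed per gate and divided by the gate total (CPM). Levels have exact Poisson, shares Clopper-Pearson and ratios exact conditional 95% intervals. PCR and free RNA are not covered. Where no UMI was seen, the limit is 3 UMIs. Named genes are the 7 members, the most abundant and most different member of each list described, the 3 genes most like a member, and list members described as a family. A few genes that this rule picks are not reported here. The leading genes within progenitors and endothelial cells were named after their values were seen. With 1 library per genotype no test was possible. The calculation of ratios and intervals was run on simulated independent Poisson counts. Such counts lack the clumping of UMIs in few cells seen here, so they do not show that the intervals hold for these genes. Thinning to 2000 UMIs used a fixed seed. Positions come from GENCODE for mm10. Software was Python 3.11.15 with numpy 2.4.6, pandas 2.3.3, scipy 1.17.1 and, for Scrublet, scanpy 1.11.5. Alternatives were another scaling, equal weight of cells, stricter filters and gates, Scrublet scores under 0.25, and leaving out the deepest cells.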

Additional observations from a re-analysis of the deposited data

How the results depend on the processing

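The 59 log2 ratios were recomputed under 467 alternatives, of which 443 moved them by less than their counting interval. For shares and gene counts, 105 alternatives stayed within their limits and 83 did not, most of these with a fold of 2, no low-count filter or another thinning. Of 157 alternatives for the 20 ratios past 1.5-fold, 156 kept the direction and 145 stayed past 1.5-fold. Leaving out the 5 cells richest in the gene, chosen after seeing the data, turned Cxcl10 in resident macrophages to -0.56, and gave 1.33 for Cxcl9 in type 1 conventional dendritic cells and 3.39 for Cxcl9 in progenitors. Without the 5% of cells with most UMIs, Cxcl9 in progenitors was 3.67. Median-of-ratios scaling, which shifts progenitor ratios by 0.14, gave 1.79 for Irf1 there. Without a filter on low counts 13 targets were higher and 8 lower in progenitors, and at a fold of 2 only 2 were lower. Over the 8 gates the share of genes called ran from 2.55% to 10.1% higher and 4.86% to 10.7% lower, at a fold of 2 from 0.682% to 3.04% and 1.37% to 6.11%, and without the filter from 10.0% to 19.1% and 18.1% to 30.5%. No paired analysis was possible because each genotype has 1 library. Counts under 30 UMIs limit Ifngr2 in CD8 T and natural killer cells and Ifng, Ifngr2, Cxcr3 and Irf1 in wild-type CD4 T cells, and gates leave 25.1% of knockout and 44.3% of wild-type cells unnamed.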
